A study of Sus scrofa with 33 samples.

Results

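The resting right ventricle was sampled in 11 pigs (Sus scrofa) by a biopsy of its free wall, taken before the pulmonary artery was banded. They are the arrays whose label gives the baseline biopsy, 11 of the 33 in the series, with 1 array per pig. After this biopsy every pig had 120 min of pulmonary banding, and the animals were then randomised to 60 min more of banding alone (control arm, 5 pigs) or to 60 min of banding with a modified Glenn shunt, which leads blood from the superior vena cava past the right ventricle (shunt arm, 6 pigs). At baseline neither arm had had banding or a shunt, so a comparison of the arms asks how far the 2 groups of pigs differed before any of it. The labels used here give no breed, age, sex or weight. Values are log2 RMA values, the authors' normalised probe set signals on a log2 scale, and a difference of 1 is a factor of 2 in signal. The number of arrays limits the precision.

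The right ventricle pumps blood into the low-pressure circuit of the lung. Its muscle cells live mainly on fatty acids, which cross the mitochondrial membrane as carnitine esters and are broken down by beta-oxidation, and they take up glucose through transporters of the GLUT family. The same cells make the natriuretic peptides ANP and BNP when they are stretched. Immediate early genes are transcribed within minutes of a stimulus such as handling or stretch, and interferon-induced genes form the antiviral programme that type I interferon switches on.

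Arm and array set coincided. By the signals of the spiked-in control RNAs the arrays of all biopsies were clustered into 3 sets, a number that was a setting of the clustering. The sets were shunt pigs 1 to 4, shunt pigs 5 and 6, and control pigs 1 to 5. At baseline the Dap spike lay between 3.20 and 3.67 in the first set, between 8.98 and 9.30 in the second and between 7.24 and 9.70 in the third. The BioB spike lay between 8.11 and 8.30, between 5.76 and 6.01 and between 8.80 and 9.75 in the same order. No set held pigs of both arms, so an effect of the arm and one of the array set cannot be told apart. The 3'-to-5' difference of the GAPDH control probe sets, a sign of RNA quality, was 0.785 ± 0.221 (SD, n = 6) in shunt pigs and 0.759 ± 0.262 (SD, n = 5) in control pigs (two-sided exact permutation p = 0.706, adjusted p = 0.840 over 7 measures, smallest possible p 0.00433). Pairs of baseline arrays correlated between 0.982 and 0.994. On the first principal component (20.2% of the variance) the shunt arm averaged 10.3 ± 15.8 and the control arm -12.3 ± 8.95, with shunt pig 4 farthest out at 38.6 (exact permutation p = 0.0173, adjusted p = 0.121).

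The tissue carried the markers of ventricular heart muscle. Of 14 markers of ventricular cardiomyocytes 11 were measured, and their signals stood at the top of the scale, which ended at 15.2. MYH7, the slow myosin heavy chain, lay between 14.98 and 15.02 in all 11 pigs. MYL2, the ventricular regulatory light chain, averaged 14.94, and TNNI3, the inhibitory subunit of cardiac troponin, lay between 14.76 and 14.85. For the other 8 measured markers the means over the pigs ran from 13.2 to 14.4. Of the atrial markers 5 of 9 were measured. Among them were MYL4, the atrial light chain (mean 8.48), SLN, sarcolipin (5.46), NPPA, for the peptide ANP (8.94), and GJA5, a gap junction gene (7.48). The median difference between the arms over the 11 markers was 0.01, with none called, against a median of -0.01 over all 6765 genes. The fast skeletal muscle markers TNNT3 (mean 4.67) and MYH2 (4.01), the lymphocyte marker CD4 (4.03) and the platelet marker PPBP (3.79) lay near or below the lower quartile of the probe set means, 4.52. They were picked from longer lists, and MYL1, of the same skeletal muscle list, averaged 8.23, above the upper quartile of 7.79. CKM, on the skeletal muscle list too, is also made by heart muscle (mean 14.0). Endothelial, fibroblast and smooth muscle markers were present, as in any piece of ventricular wall, with PECAM1 at a mean of 10.6, DCN at 12.5 and ACTA2 at 11.0.

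How far the pigs differed depended strongly on the kind of gene. For each gene the spread was taken as the SD between pigs within arms, pooled over the 2 arms, and its median over the 6765 genes was 0.169. Cytosolic ribosomal protein genes had a median spread of 0.074 over 59 measured members. The 5 measured thick filament and M band genes had one of 0.073, but MYH7, MYL2 and MYL3, with spreads of 0.01, 0.04 and 0.07, lie near the top of the scale. MYOM1 and MYOM2, the M band proteins of the list, had spreads of 0.21 and 0.22 at means of 12.8 and 13.5, both above the median of all genes. Genes of the respiratory chain and ATP synthase had 0.099 over 45, and those of the tricarboxylic acid cycle, which feeds the chain, 0.126 over 18. The 5 narrowest genes with a mean above the median of all probe sets were MYH7, at 0.01, TNNI3, RPS20, HMGB1 and NKX6-1, at 0.03 each. RPS20 is a protein of the small ribosomal subunit, HMGB1 a chromatin protein and NKX6-1 a homeobox transcription factor. MYH7 and TNNI3 lie near the top of the scale, and RPS20 is also bright, with a mean of 14.0. Further probe sets of HMGB1 had spreads between 0.133 and 0.171, and a further one of NKX6-1 had 0.177. The narrow spread of HMGB1 and of NKX6-1 thus rests on 1 probe set each.

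At the other end stood the immediate early genes, with a median spread of 0.651 over 18 members, the interferon-induced genes, with 0.539 over 21, and the cytokines and NF-kB targets, with 0.374 over 24. A spread above 1 was found for 19 of 6765 genes and one above 0.5 for 213. The 15 widest genes were EIF1AY, NPPA, NPPB, OAS1, PDYN, ATF3, GPX1, RSAD2, GPNMB, ISG15, BTG2, IER5, DHX9, PTX3 and MYL1.

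**Figure D1:**
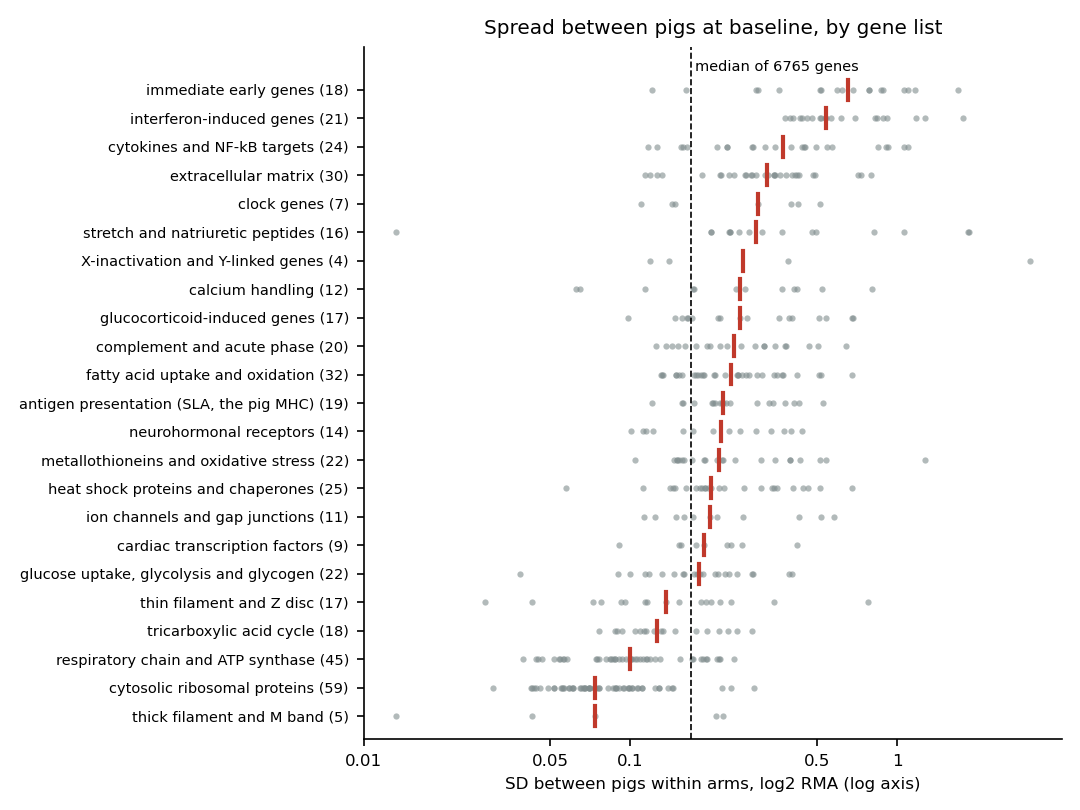
SD between pigs within arms at baseline (log2 RMA, log axis) for the measured members of each of 23 gene lists (grey points, number of members in brackets), with the list's median as a red line and the median of all genes as a dashed line. Ribosomal protein genes lie at the narrow end (median 0.074) and immediate early genes at the wide end (0.651); of the 5 thick filament and M band genes the 3 narrowest have signals near the top of the scale.

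The genes that differed most between pigs were of 2 kinds when the same 11 pigs were biopsied again at 120 min of banding. For 10 of the 15 the SD of the change within a pig was smaller than the SD between pigs at baseline, which held for 1893 of 6765 genes (28.0%) in all. The 15 were picked by their spread at baseline, and that choice by itself favours a higher share among them. EIF1AY, OAS1, GPX1, RSAD2, GPNMB and ISG15 had a spread of change between 0.29 and 0.42, and MYL1 of 0.70. In these genes each pig largely kept its own level. NPPA, NPPB, PDYN, ATF3, BTG2, IER5 and PTX3 had a spread of change between 1.04 and 2.48, close to or above their spread between pigs at baseline. DHX9, an RNA helicase, lay between these with 0.82.

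EIF1AY, a translation initiation factor encoded on the Y chromosome, had the largest spread, 3.15. It read 9.16, 9.46 and 9.39 in shunt pigs 1, 2 and 6, and 2.92, 2.97 and 2.85 in shunt pigs 3, 4 and 5. In control pigs 1 to 5 it read 9.24, 9.13, 9.61, 3.50 and 9.25. Thus 4 pigs were low and 7 high with no value between, and the same 4 pigs were the low ones at 120 min, where they read 3.08 to 3.45. SRY, the testis-determining gene of the same chromosome, lay between 3.35 and 3.77 in all 11 pigs, below the lower quartile of the probe set means.

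GPX1, a glutathione peroxidase that removes peroxides, also had 2 levels. It lay between 10.2 and 11.0 in shunt pigs 1 to 4 and control pigs 2, 3 and 5. In shunt pigs 5 and 6 and control pigs 1 and 4 it lay between 7.94 and 8.63, and the same 4 pigs were the lowest at 120 min. Its spread was 1.27. GPNMB, a membrane glycoprotein of macrophages among other cells, read 8.50 and 8.40 in shunt pigs 3 and 4, 8.25 and 8.03 in control pigs 2 and 4, and 5.78 to 6.32 in the other 7 pigs. Its 4 further probe sets had spreads between 0.11 and 0.23, at means of 3.22 to 3.74, so that the pattern rests on 1 probe set. MYL1, the light chain of fast skeletal muscle myosin, ran from 6.60 to 8.68 in the shunt arm and up to 11.1 in control pig 4. Of the other 7 measured skeletal muscle markers the widest spread was 0.54, for TNNT1.

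Interferon-induced genes set single pigs apart. OAS1, which makes the messenger that activates RNase L, read 4.44 and 4.11 in control pigs 3 and 5 and between 6.83 and 9.98 in the other 9. ISG15, a ubiquitin-like modifier, had a lowest, median and highest value of 8.91, 9.76 and 12.54 in the shunt arm, against 9.92, 9.56, 9.64, 8.44 and 8.19 in control pigs 1 to 5. Shunt pig 1 held the highest value of ISG15, of OAS1 (9.98) and of the antiviral enzyme RSAD2 (11.67). When each gene was centred on its mean over the 11 pigs and the 21 measured members were averaged, shunt pig 1 stood at 1.61, the next highest pig at 0.382 and control pig 5 lowest at -0.765. At 120 min shunt pig 1 stood at 1.51 and control pig 5 at -0.888, again the highest and the lowest. All 21 members had a positive difference between the arms, from 0.21 to 1.32, with a median of 0.492, and none was called. Only 1 had an unadjusted p under 0.05, the chemokine CXCL9 (1.09 ± 0.42, SE). Leaving out 1 pig at a time moved the median to between 0.243, without shunt pig 1, and 0.613.

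Shunt pigs 2 and 4 stood apart in another way. ATF3, a stress-induced transcription factor, read 10.75 and 12.42 in these 2 pigs and 7.06 to 8.32 in the other 4 of the shunt arm, against 8.43, 9.17, 8.97, 7.97 and 7.14 in control pigs 1 to 5. NPPB, which encodes BNP, read 11.33 and 10.86 in them, 6.25 to 7.58 in the other 4, and 9.92, 8.60, 6.88, 7.10 and 7.16 in the control pigs. The antiproliferative gene BTG2 read 11.24 and 11.09 in them and no more than 8.66 in the rest of that arm. The same 2 pigs were the highest of the shunt arm in 7 of the 15 widest genes: NPPA, NPPB, PDYN, ATF3, BTG2, IER5 and PTX3. They were so in 384 of all 6765 genes (5.68%), and the pair was picked after its values had been seen. They are also the 7 of the 15 with the widest change from baseline to 120 min. IL6, the inflammatory cytokine, had its 2 highest values there too, 5.74 and 7.14, against 4.06 to 5.04 in the other 9 pigs. So had the chemokine CCL2, with 10.22 and 11.04 against 7.29 to 9.11, and the matrix protein thrombospondin 1, THBS1, with 10.99 and 11.27 against 8.81 to 9.82. The GAPDH 3'-to-5' difference was 0.681 and 0.709 in these pigs, within the range of the other 9, and its part in the pattern was not tested.

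By 120 min of banding the spread was smaller for several of these genes, a result favoured by picking them for a wide baseline spread. ATF3 then read 11.90 to 12.87 in the shunt arm and 11.31 to 12.76 in the control arm, and its spread had gone from 1.68 to 0.46. For IER5, an immediate early response gene, the spread went from 1.10 to 0.25 and for NPPB from 1.85 to 1.24. Over all genes the opposite held, with a median spread of 0.188 at 120 min and a wider spread than at baseline in 4105 of 6765 genes. NPPA, for the peptide ANP, kept a wide range with other pigs on top: its lowest, median and highest values in the shunt arm at baseline were 6.29, 8.99 and 11.59, and control pig 5 went from the lowest baseline value, 5.97, to the highest value at 120 min, 11.48. PDYN, the gene of the opioid precursor prodynorphin, read 9.42 in control pig 2, 7.79 in shunt pig 4 and 3.97 in control pig 5 at baseline, and 5.85, 5.62 and 7.76 in these pigs at 120 min.

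**Figure D2:**
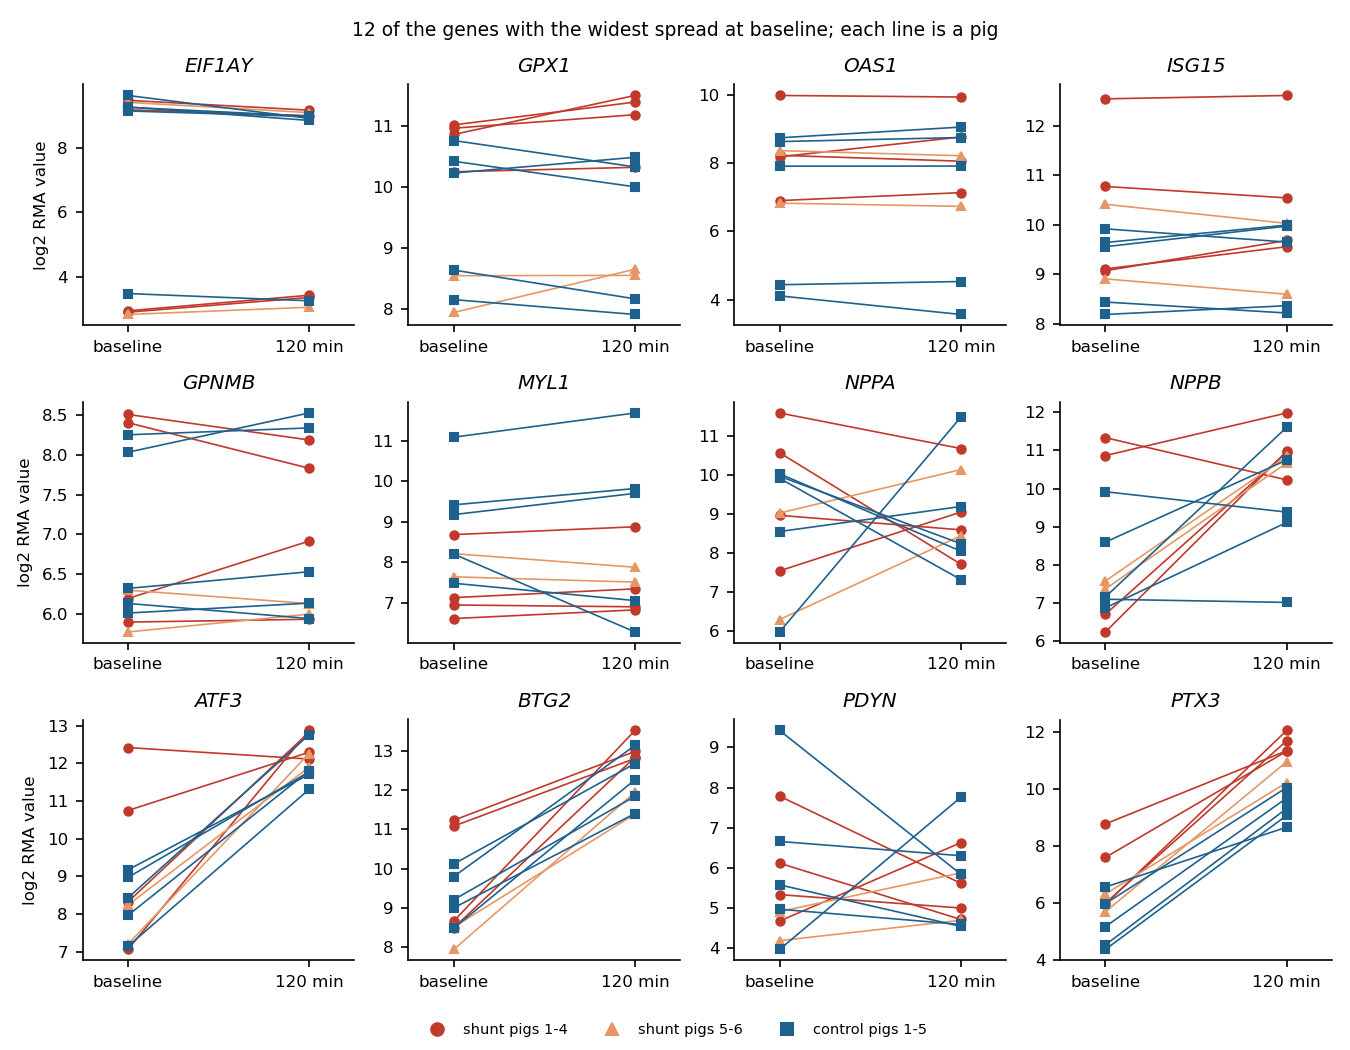
log2 RMA values of 12 of the 15 genes with the widest spread, at baseline and at 120 min of banding; each line is a pig, coloured by array set. EIF1AY, GPX1, OAS1, ISG15, GPNMB and MYL1 largely keep the order of the pigs (SD of change 0.29 to 0.70), and in NPPA, NPPB, ATF3, BTG2, PDYN and PTX3 the lines cross or converge (1.04 to 2.48).

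Few probe sets passed the test between the arms at baseline. In limma 5 of 23999 probe sets passed an adjusted p of 0.05 (0.0208%), 2 higher (0.00833%) and 3 lower (0.0125%) in the shunt arm. An unadjusted p under 0.05 was reached by 2820 (11.8%). That share is above the 0.05 that such a threshold gives on average where nothing differs. The small number of calls therefore does not show that the arms were alike. The 5 hold 3 named genes: RETSAT and MYO5B, lower in the shunt arm, and SLC2A1, higher. All 5 calls had adjusted p-values between 0.0389 and 0.0450, close to the threshold. Leaving out any 1 of the 11 pigs left 0 to 2 calls, with none left in 9 of the 11 cases, 1 without shunt pig 6 and 2 without control pig 3. Without shunt pigs 5 and 6 none passed by limma, and 2951 had an unadjusted p under 0.05.

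RETSAT, the retinol saturase, an oxidoreductase of vitamin A metabolism found in fat and liver, read 8.83, 9.12 and 9.40 (lowest, median and highest) in the shunt arm and 10.75, 10.33, 9.98, 10.06 and 10.37 in control pigs 1 to 5. Every shunt value lay below every control value. The difference was -1.16 ± 0.14 (SE, n = 6 and 5), or 2.24-fold lower, with an adjusted p of 0.0389 in limma. It lost its call in 10 of the 11 fits that left out 1 pig (adjusted p from 0.0508 to 0.141) and kept it only without control pig 3 (0.0196). Of the 10 other settings 8 kept it, and it was lost without shunt pigs 5 and 6 (adjusted p = 0.0694) and for a minimum change of 1.5-fold. At 120 min it was -1.36 ± 0.33 (adjusted p = 0.0811), again with no overlap.

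MYO5B, an actin motor that moves recycling vesicles to the cell surface, had the largest difference of the called genes. It read 4.18, 4.70 and 5.11 in the shunt arm and 8.09, 7.41, 5.91, 6.16 and 7.61 in control pigs 1 to 5, so that the control pigs were spread over more than 2 units and the shunt pigs over less than 1. The difference was -2.39 ± 0.34, or 5.22-fold lower (adjusted p = 0.0450). The same held at 120 min, with -1.94 ± 0.35 (adjusted p = 0.0447), and MYO5B's probe set was the only one called at both biopsies. The baseline call was lost when each array was centred on its median (adjusted p = 0.0528), with an intensity trend and robust variances (0.0799) and with the pig number as a block (0.0751). It was also lost without shunt pigs 5 and 6, for a minimum change of 1.5-fold and in most fits that left out 1 pig, where no probe set passed. In the 2 array sets of the shunt arm the difference from the control pigs was -2.53 (pigs 1 to 4, adjusted p = 0.0492) and -2.09 (pigs 5 and 6, adjusted p = 0.202).

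SLC2A1, the glucose transporter GLUT1 that carries basal glucose uptake, read 6.75, 7.04 and 7.33 in the shunt arm and 6.35, 6.45, 6.15, 6.33 and 6.04 in control pigs 1 to 5. The arms did not overlap, and the difference was 0.76 ± 0.11, or 1.69-fold higher (adjusted p = 0.0450). Median centring, the intensity trend with robust variances and the block of pig number ended this call too, with adjusted p-values of 0.0528, 0.0625 and 0.123. So did every fit that left out 1 pig, leaving out shunt pigs 5 and 6, and a minimum change of 1.5-fold. At 120 min the difference was 0.25 ± 0.16 (adjusted p = 0.460) and the arms overlapped, from 6.64 to 7.04 against 6.04 to 6.91. SLC2A4, the insulin-dependent transporter GLUT4, read 6.97 to 7.35 in the shunt arm and 6.87 to 7.22 in the control arm. The 2 other called probe sets have no gene name in the annotation used here. They differed by 0.56 ± 0.08 and -0.49 ± 0.07 (adjusted p = 0.0450 each), both without overlap. All 5 had the same sign at 120 min, on other arrays of the same pigs and array sets.

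The genes next in line did not pass. On the higher side these were the proteasome assembly genes PSMD5 (0.47 ± 0.09) and PSMD10 (0.46 ± 0.09). With them stood TALDO1, an enzyme of the pentose phosphate pathway (0.35 ± 0.06), and DKK1, a secreted inhibitor of Wnt signalling (0.54 ± 0.10, at a mean signal of 3.06). On the lower side they were LIPE (-1.13 ± 0.20), CPT1A (-0.85 ± 0.15) and NAAA, a lysosomal acid amidase (-0.67 ± 0.11). Their adjusted p-values lay between 0.0846 and 0.0936, and in each the arms did not overlap. In the fit of all 33 arrays with pig as a random block TALDO1 (adjusted p = 0.0431), DKK1 (0.00481) and NAAA (0.0218) were called as well. Arrays taken after banding also set the spread in that fit, with 1 correlation within pigs (0.248) for all probe sets. Over all genes 71 of 6765 (1.05%) had every shunt value above every control value and 65 (0.961%) had every one below.

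**Figure D3:**
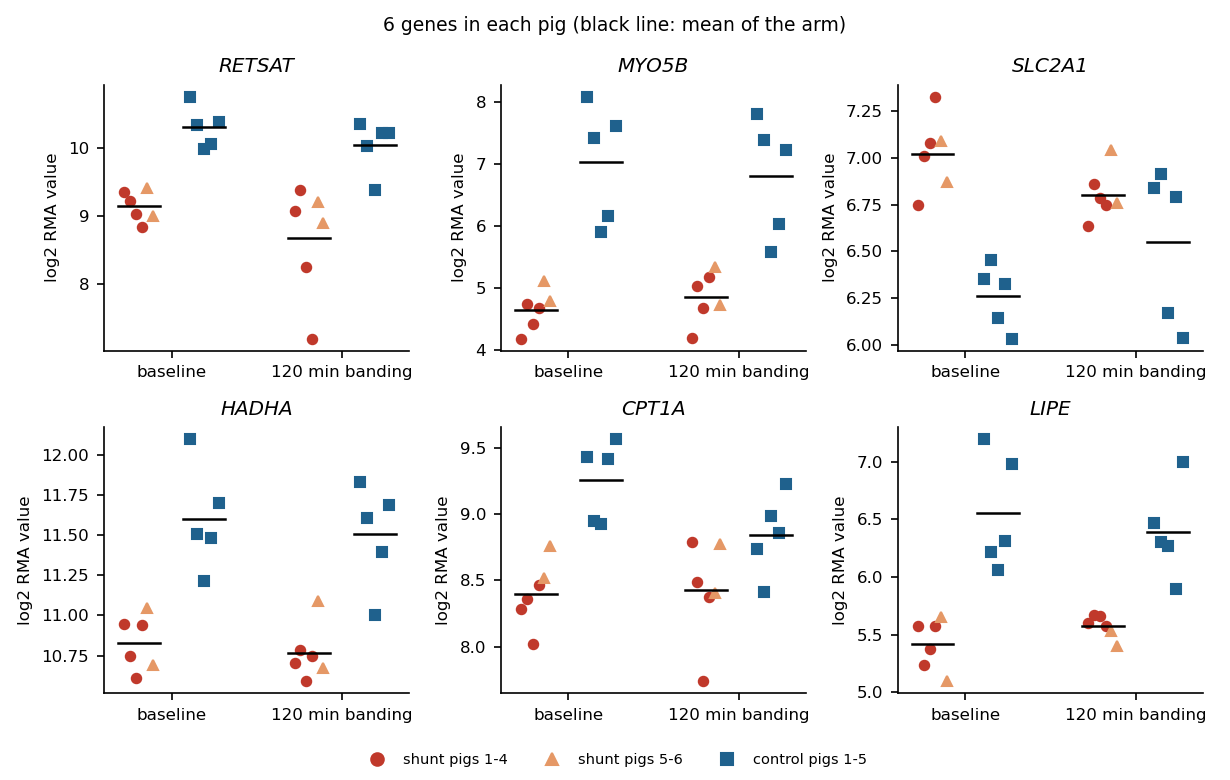
log2 RMA values of 6 genes in each pig at baseline and at 120 min of banding, by arm and array set, with the mean of each arm as a black line. At baseline no shunt value overlaps a control value in any of the 6 panels, and only RETSAT, MYO5B and SLC2A1 passed the test at baseline.

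Genes of fatty acid uptake and oxidation stood lower in the shunt arm as a list, although none passed alone in the fit of the baseline arrays. In the fit of all 33 arrays with pig as a random block LIPE (adjusted p = 0.00196), HADHA (0.0106) and CPT1A (0.0141) were called lower at baseline. As said above, arrays taken after banding also set the spread in that fit. Of 37 genes 32 were measured, and 28 had a negative difference. The median was -0.265, against -0.008 over all genes. An unadjusted p under 0.05 was reached by 15 members on the lower side, where 448 of all genes (6.62%) reached it, and by 1 on the higher side. In 6 members every shunt value lay below every control value, against 0.961% of all genes, and in none above. The list had been chosen with earlier results of these data known. When the members were centred and averaged, the shunt pigs stood between -0.351 and 0.004 and the control pigs between 0.010 and 0.272.

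The 6 members without overlap cover several steps of the pathway. CPT1A and CPT1B, the liver and muscle forms of the enzyme that commits fatty acids to mitochondrial uptake, differed by -0.85 ± 0.15 (adjusted p = 0.0846) and -0.57 ± 0.12 (adjusted p = 0.133). CPT1A read 8.02, 8.41 and 8.76 in the shunt arm and 9.43, 8.95, 8.92, 9.41 and 9.56 in control pigs 1 to 5. HADHA, the alpha subunit of the mitochondrial trifunctional protein, read 10.61, 10.84 and 11.05 against 12.10, 11.51, 11.22, 11.49 and 11.70, a difference of -0.77 ± 0.14 (adjusted p = 0.0871).

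ACADVL, which opens the oxidation of very long chains, differed by -0.60 ± 0.13 (adjusted p = 0.133), and ACADS, which acts on short chains, by -0.41 ± 0.09 (adjusted p = 0.156). ACADVL had a further, dimmer probe set with a difference of -0.13 ± 0.19. LIPE, hormone-sensitive lipase, which releases fatty acids from stored fat, read 5.10, 5.47 and 5.66 against 7.19, 6.22, 6.06, 6.31 and 6.98, and differed by -1.13 ± 0.20. In all of these genes control pig 1 or control pig 5 held the highest value. ACADS falls outside the rule for named genes and was picked after its values had been seen. So does SLC27A6, a fatty acid transport protein and the only member on the higher side with an unadjusted p under 0.05 (0.40 ± 0.18, adjusted p = 0.413). FABP3, the abundant fatty acid carrier of heart muscle, differed by -0.27 ± 0.09 (adjusted p = 0.301), with values from 13.23 to 13.68 in the shunt arm and 13.62 to 13.95 in the control arm.

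The same list was compared in the second biopsy, when all pigs had been banded and none had a shunt. There 84 of 23999 probe sets passed (0.35%), 58 higher (0.242%) and 26 lower (0.108%), and 3903 had an unadjusted p under 0.05. Of the 32 members 24 had a negative difference, 5 were called lower in the shunt arm and none was called higher. The 5 were CPT1B (-0.67 ± 0.11, adjusted p = 0.0281), the fatty acid binding protein gene FABP4 (-0.94 ± 0.16, adjusted p = 0.0399), LIPE (-0.82 ± 0.15, adjusted p = 0.0448), HADHA (-0.74 ± 0.14, adjusted p = 0.0458) and ACADVL (-0.69 ± 0.13, adjusted p = 0.0458). In 6 members the arms did not overlap, with the shunt arm below, against 1.69% of all genes. The median difference was -0.218. The pigs' means over the list overlapped there, from -0.266 to 0.023 in the shunt arm and from -0.054 to 0.245 in the control arm. These are other arrays of the same pigs in the same array sets, so arm and array set cannot be told apart there either. The 84 calls became 7 without shunt pig 4, 8 without shunt pig 1 or control pig 5, 9 without control pig 3 and 12 without shunt pig 3, and 165 without shunt pig 5. With the pig number as a block 16 probe sets were called, and of the 5 genes only FABP4 was still called (adjusted p = 0.0472, the others 0.0847 to 0.115).

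**Figure D4:**
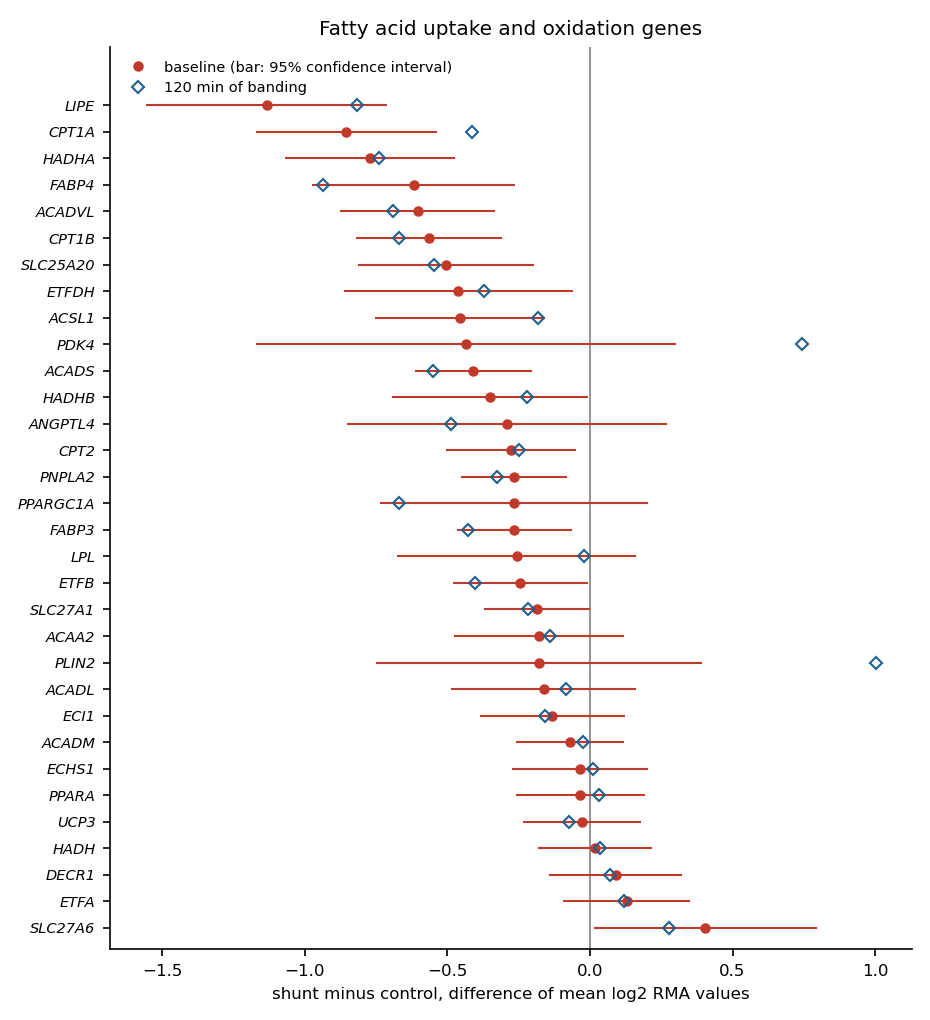
Difference between the arms (shunt minus control, log2 RMA) for the 32 measured genes of fatty acid uptake and oxidation at baseline (red points, bars: 95% confidence intervals) and at 120 min of banding (blue diamonds). At baseline 28 of the 32 points lie below 0, with LIPE lowest at -1.13, and none passed the test.

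Both array sets of the shunt arm lay on the same side of the control pigs for this list, with a median difference of -0.189 in shunt pigs 1 to 4 and -0.327 in shunt pigs 5 and 6. For HADHA the values were -0.79 and -0.73. Without shunt pigs 5 and 6, 10 of the 32 members lay entirely below the control arm, against 2.82% of all genes in that comparison. Leaving out 1 pig at a time moved the median to between -0.316 and -0.205. Of 6 adipocyte markers 4 were measured, and all had a negative difference, from -1.13 to -0.03 with a median of -0.460. An unadjusted p under 0.05 by limma was reached by 2 of them. LIPE and FABP4, 2 of the 4, are also members of the fatty acid list, so likeness between the 2 lists is partly built in. The centred mean of the 4 markers lay between -0.355 and -0.152 in the shunt pigs and between 0.021 and 0.577 in the control pigs. ADIPOQ, adiponectin, a hormone that fat cells secrete, had a mean signal of 3.93, below the lower quartile of the probe set means, and leptin, LEP, one of 6.19. Endothelial markers also stood lower, with 10 of 11 measured of 12 negative and a median of -0.205, at -0.424 in shunt pigs 1 to 4 and -0.001 in shunt pigs 5 and 6, and from -0.350 without shunt pig 6 to -0.096 without shunt pig 1. In whole biopsies fewer cells of a type and less RNA per cell cannot be told apart, and the part of these cells in the result was not tested.

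The difference between this list and those of other routes of fuel use was not tested. The glucose and glycogen list had a median difference of 0.033 over 22 measured members, with SLC2A1 its only call. PPP1R3B, which targets protein phosphatase 1 to glycogen, differed by 0.47 ± 0.12 (adjusted p = 0.186), the muscle glycogen phosphorylase PYGM by -0.40 ± 0.21 (adjusted p = 0.479) and lactate dehydrogenase A, LDHA, by 0.41 ± 0.20 (adjusted p = 0.462). Tricarboxylic acid cycle genes had a median of -0.051 (-0.021 without shunt pig 6), with 15 of 18 negative and none called. IDH3B, a subunit of isocitrate dehydrogenase, had the smallest p of them, with -0.28 ± 0.07 (adjusted p = 0.194), without overlap. OGDH had the largest difference, -0.32 ± 0.09 (adjusted p = 0.228). The respiratory chain had a median of -0.022 over 45 genes, the largest difference in either direction being 0.21, and no member with an unadjusted p under 0.05. At 120 min the tricarboxylic acid cycle list had a median of -0.131, with 14 of 18 negative and 3 entirely below the control arm, and the respiratory chain one of -0.162, with 41 of 45 negative and 5 entirely below, against 1.69% of all genes. The glucose list had a median of -0.077 there, and none of these 3 lists had a call.

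Contractile, electrical and calcium genes were mostly close between the arms. Of the thick and thin filament, calcium handling, ion channel and cardiac transcription factor lists none had a called member, and their medians lay between -0.056 and 0.062. The largest difference among them was that of S100A1, a calcium-binding protein that aids the ryanodine receptor, at -0.85 ± 0.22 (adjusted p = 0.190). Of the load-sensitive proteins of the sarcomere and disc, those with the smallest p were XIRP2 (-1.10 ± 0.25, adjusted p = 0.156), NRAP (-0.47 ± 0.12, adjusted p = 0.167) and FHL1 (-0.44 ± 0.13, adjusted p = 0.243). XIRP2 read 6.95, 7.19 and 8.28 in the shunt arm and 8.65, 8.07, 8.33, 9.07 and 8.68 in control pigs 1 to 5, with shunt pigs 1 and 6 in the range of the control arm. Among receptors, CHRM2, the muscarinic receptor of the vagus, differed by 0.75 ± 0.18 (adjusted p = 0.156), the insulin receptor gene INSR by -0.62 ± 0.21 (adjusted p = 0.281) and IGF1R by -0.63 ± 0.23 (adjusted p = 0.311). Further probe sets differed less, by -0.20 ± 0.12 and -0.11 ± 0.08 for INSR and by -0.09 ± 0.10 for IGF1R. KCNJ3, a subunit of the potassium channel that CHRM2 opens, differed by -0.24 ± 0.08 (adjusted p = 0.274), and the angiotensin II receptor gene AGTR1 by 0.33 ± 0.13 (adjusted p = 0.345).

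Chaperone genes leaned the other way. Of 25 measured members 16 had a positive difference, with a median of 0.136 and no call. The median was 0.163 in shunt pigs 1 to 4 and 0.042 in shunt pigs 5 and 6, and it was 0.077 without shunt pig 3. DNAJA1, a co-chaperone of HSP70, read 9.78, 10.06 and 10.55 in the shunt arm and 9.57, 9.44, 9.42, 9.43 and 9.42 in control pigs 1 to 5, without overlap (0.65 ± 0.13, adjusted p = 0.0936). It was the only member without overlap (4%, against 1.05% of all genes with every shunt value above). Its further probe set, at a mean of 8.31, differed by -0.07 ± 0.09. HSPH1, a nucleotide exchange factor of HSP70, differed by 0.99 ± 0.26 (adjusted p = 0.200) and HSPA5, the chaperone of the endoplasmic reticulum, by 0.78 ± 0.21 (adjusted p = 0.206, and 0.0498 with all 33 arrays and pig as a random block). At 120 min the values of these genes were 0.94 ± 0.22, 1.48 ± 0.34 and 0.53 ± 0.14, with adjusted p-values between 0.0714 and 0.0931. Of the 25 members 1 other was called higher there and none lower. In 4 members every shunt value lay above every control value, against 1.4% of all genes, and the list had a median of 0.251. Of the antioxidant enzymes, catalase, CAT, differed by -0.38 ± 0.10 (adjusted p = 0.187, no overlap) and GPX3 by -0.70 ± 0.21 (adjusted p = 0.234).

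For immediate early genes the difference between the arms rested on few pigs. The median over 18 members was 0.305, with 15 positive and none called. It was 0.613 in shunt pigs 1 to 4 and -0.067 in shunt pigs 5 and 6, and it ranged from 0.066, without shunt pig 4, to 0.485, without shunt pig 1, as single pigs were left out. EGR1 and FOS, the transcription factor genes with the smallest p of the list, differed by 1.42 ± 0.44 (adjusted p = 0.255) and 1.28 ± 0.45 (adjusted p = 0.300). FOS read 11.83 and 12.55 in shunt pigs 2 and 4 and 9.95 to 10.93 in the other 4, against 10.25, 9.73, 10.45, 8.57 and 9.73 in control pigs 1 to 5. PTX3, the acute-phase protein pentraxin 3, differed by 1.40 ± 0.55 at baseline (adjusted p = 0.347), when its arms overlapped. At 120 min its difference was 1.90 ± 0.30 (adjusted p = 0.0281), without overlap.

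Matrix, immune presentation, clock and glucocorticoid genes had no call. The extracellular matrix list had a median of 0.052 over 30 members, with MGP, matrix Gla protein, at 0.42 ± 0.18 (adjusted p = 0.400) and the growth factor gene TGFB1 at -0.24 ± 0.09 (adjusted p = 0.311). Genes of antigen presentation by the SLA, the pig's MHC, had a median of -0.083 over 19, led by the class II chain SLA-DRB1 (-0.36 ± 0.13, adjusted p = 0.311). Complement and acute phase genes had a median of 0.014 over 20. Of the 7 measured clock genes, RORA, a nuclear receptor, had the smallest p, with 0.85 ± 0.26 (adjusted p = 0.256) and values of 5.45, 6.09 and 6.83 in the shunt arm against 4.79 to 5.63 in the control arm. Shunt pigs 5 and 6, at 5.45 and 5.47, lay within the range of the control arm. Genes that glucocorticoids induce had a median of 0.136 over 17. The transcription factor gene CEBPD had the smallest p (0.52 ± 0.20, adjusted p = 0.349) and was highest in shunt pig 4 at 10.91. DUSP1 had the largest difference, 0.74 ± 0.35 (adjusted p = 0.429).

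**Figure D5:**
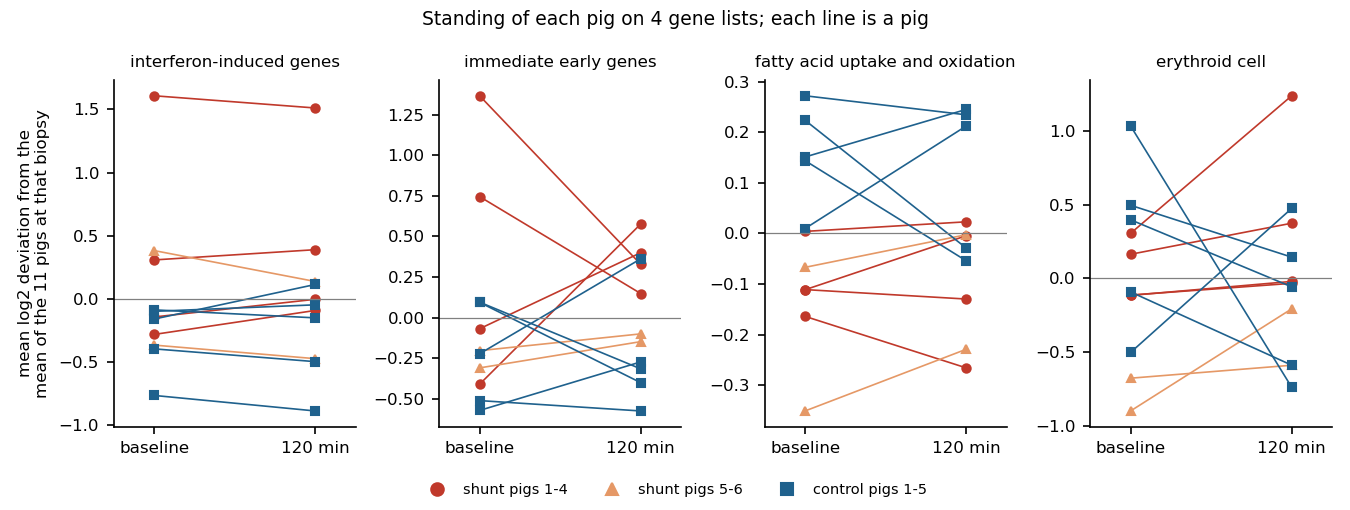
Standing of each pig on 4 lists at baseline and at 120 min of banding: the mean over a list's genes of the deviation from the mean of the 11 pigs at that biopsy (log2 RMA); each line is a pig, coloured by array set. On the interferon list shunt pig 1 stands highest at both biopsies (1.61 and 1.51), on the immediate early list shunt pigs 4 and 2 are highest at baseline only (1.37 and 0.746), and on the fatty acid list all shunt pigs lie below all control pigs at baseline.

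The marker lists of other cells had no called member at baseline. Fibroblast markers were positive in 8 of 8 measured, with a median of 0.185 (0.086 in shunt pigs 1 to 4 and 0.355 in shunt pigs 5 and 6, 0.106 without shunt pig 6 and 0.328 without control pig 4), led by lumican, LUM (0.65 ± 0.25). Smooth muscle and pericyte markers were negative in 7 of 7, with a median of -0.234 (-0.385 and 0.028 in the 2 sets), led by ACTA2 (-0.51 ± 0.20). The endothelial markers with the smallest p were ESAM (-0.39 ± 0.13) and VWF, von Willebrand factor (-0.59 ± 0.20). Skeletal muscle markers were negative in 7 of 8, with a median of -0.140, and 3 of the 8 had an unadjusted p under 0.05 on the lower side, against 6.62% of all genes. Lymphocyte and plasma cell markers were negative in 9 of 10, with a median of -0.146. The part of these cells in the differences between the arms was not tested. Neutrophil and monocyte markers had a median of -0.039 over 7, and resident macrophage markers one of 0.084 over 6, led by LYVE1 (0.51 ± 0.22). Of 3 measured erythroid markers, ALAS2 and AHSP read 6.83 and 5.71 in shunt pig 5 and 6.56 and 5.51 in shunt pig 6, the lowest values of the 11 pigs for each gene, and the haemoglobin gene HBB read 8.31 and 8.10 there.

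Within the shunt arm the array sets could be compared without a difference in arm. Shunt pigs 1 to 4 against shunt pigs 5 and 6 gave 8 of 23999 called probe sets (0.0333%), 1 higher and 7 lower. Against the control pigs, shunt pigs 1 to 4 gave 21 calls (0.0875%) and shunt pigs 5 and 6 gave 1 (0.00417%). The comparison of shunt pigs 1 to 4 with the control pigs is the same contrast as the one without shunt pigs 5 and 6, which gave no call: here all 11 arrays share 1 estimate of the spread, and there only 9 do. Quantile normalisation left 3, 0 and 2 calls in these comparisons. Between the 2 sets of the shunt arm RETSAT differed by -0.09, MYO5B by -0.45 and SLC2A1 by 0.06, and GPX1 by 2.53 ± 0.61 (adjusted p = 0.189), none of them called. The 2 levels of GPX1 divided the shunt arm by array set, with pigs 1 to 4 high and pigs 5 and 6 low. Both levels occurred in the set of the control pigs, with 3 high and 2 low, and the part of the array set in GPX1 was not tested.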

How the data were processed

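The authors deposited log2 RMA values for 24123 probe sets of a porcine expression array, 33 arrays in all. RMA, which normalises arrays together, is named in the submitters' processing notes, without a version or the grouping of arrays. The 124 control probe sets were left out, and 23999 were tested. A probe set was named from the platform annotation where it had 1 symbol (10069). A further 198 had several and 13732 had none, and 9961 of those with 1 matched a RefSeq gene. Of several probe sets of a gene the one with the highest mean over all arrays was taken (6765 genes).

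The 6 shunt and 5 control arrays of the baseline biopsy were compared with limma 3.58.1 (lmFit and eBayes, statmod 1.5.0, R 4.3.3), with p-values adjusted by Benjamini-Hochberg over all 23999 probe sets at a threshold of 0.05. The 120 min arrays were fitted the same way. Quality measures used a two-sided exact permutation test over 462 splits. The p-values measure the spread between these pigs. Alternatives were median centring, quantile normalisation, an intensity trend with robust variances, leaving out the lowest 30%, a block of pig number, array weights, all arrays with pig as a random block, 1 probe set per gene, a minimum change of 1.5-fold, and leaving out pigs. Pig numbers do not pair the arms: pigs of the same number correlated by -0.020 to 0.138 in their deviations, and these are different animals.

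Members, lists and tests were chosen with earlier results of these data known. Genes were named where their difference passed without overlap, or else by the 5 smallest p in a direction, by the 15 widest and 5 narrowest spreads, from a panel, and by up to 4 members of each list or any marker. On simulated data for the comparison of the arms at baseline, with 50 of 23999 probe sets changed per size, 62% of changes of 0.5 on the log2 scale were recovered, 96% of those of 1, 98% of those of 2 and 100% of those of 3, with 13 false calls. More probe sets were changed there than the 5 called in the data, which makes the adjusted threshold easier to pass. These shares may not carry over: in the data 23 of 6765 genes differed by more than 1, and of these only RETSAT and MYO5B were called.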

Additional observations from a re-analysis of the deposited data

Results flagged for a closer look

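In 5 of 102 groups of values at baseline, 1 per gene and arm, 1 pig lay farther from the rest than Dixon's 95% limit allows, and chance alone marks about 1 in 20 groups. EIF1AY read 3.50 in control pig 4, against 9.13 to 9.61 in the other 4 control pigs. IL6 read 5.04 in control pig 1, against 4.06 to 4.32 in the other 4. In the shunt arm PSMD10 was lowest in pig 2, at 7.59 against 7.76 to 7.84 in the other 5. ADRB1, the beta-1 adrenergic receptor gene, was lowest in pig 6, at 5.85 against 6.17 to 6.29. HBB was lowest in pig 1, at 7.49 against 8.03 to 8.33.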

How the results depend on the processing

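The 5 calls between the arms at baseline became 1 with median centring, 1 with an intensity trend and robust variances, 3 with 1 probe set per gene and 57 (27 higher, 30 lower) with all 33 arrays and pig as a random block. None passed for a minimum change of 1.5-fold (limma's treat, 21 with an unadjusted p under 0.05) or without shunt pigs 5 and 6 (2951 by limma). Leaving out 1 pig gave 0 to 2, with 2103 to 3257 unadjusted p under 0.05 by limma. Quantile normalisation, the filter and array weights gave 5 or 6. With the pig number as a block 2 passed at baseline and 16 at 120 min, where leaving out 1 pig gave 7 to 165 and the other settings 58 to 106. Between shunt pigs 1 to 4 and control pigs the 21 calls became 0 with quantile normalisation (3161 unadjusted by limma). Between shunt pigs 5 and 6 and control pigs the 1 call became 2 with median centring, quantile normalisation or the trend, and 0 with the filter (2036 unadjusted by limma). Within the shunt arm the 8 became 3 with quantile normalisation and 0 with the filter (1899 unadjusted by limma). The cause was not tested. The median spread stayed between 0.164 and 0.171 with median centring and leaving out single pigs. Of the values of single genes that the text reports, none changed direction under any setting run. At baseline 52 probe sets under 21 settings gave 1089 such values. The 5 called ones lost their call in 76 of them, 7 others gained one (all with the 33 arrays and pig as a random block) and 1006 stayed on their side of the threshold. At 120 min 16 genes under 16 settings gave 256 values, with 58 lost in 7 genes, 3 gained in 2 genes and 195 on the same side.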
